A study of Mus musculus with 6 samples.

Results

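The genes described here are the core genes of gluconeogenesis and hepatic glucose output, 10 of the 56691 genes in the table of the liver RNA-seq experiment. They were chosen by name: *Pcx*, *Pck1*, *Pck2*, *Fbp1*, *G6pc*, *G6pc3* and *Slc37a4* for the steps particular to glucose synthesis, *Got1* and *Mdh1* for the exchange of carbon between mitochondria and cytosol, and *Ppargc1a* for a transcriptional coactivator of the pathway. All 10 were found by their Ensembl identifiers and all 10 passed the filter on low values. Poly(A) RNA of the liver was sequenced from 3 KPF dams and 3 WPF dams, each library coming from another dam. KPF dams were h*Chrebp* KO mice, in which floxed *Chrebp* alleles are recombined by Cre under the albumin promoter, which removes an exon and disrupts the gene in hepatocytes while other liver cells keep it intact. WPF dams are called WT in the sample labels and *Chrebp* flox/flox without Cre in the methods of the study. Dams of both groups were pregnant and ate HFrD, a diet rich in fructose, from mating until late pregnancy. The age of the dams, the hour of collection and whether they had fasted are not given in the sources used here.

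Gluconeogenesis is the making of glucose from lactate, amino acids and glycerol, and the liver is its main site during fasting. Pyruvate carboxylase turns pyruvate into oxaloacetate in mitochondria, phosphoenolpyruvate carboxykinase turns oxaloacetate into phosphoenolpyruvate, and the path then runs back up the reversible steps of glycolysis to fructose-1,6-bisphosphatase and glucose-6-phosphatase, which frees glucose from glucose-6-phosphate in the endoplasmic reticulum. Glucagon, glucocorticoids and fasting raise transcription of *Pck1* and *G6pc*, and insulin lowers it. *G6pc* is also known to be induced by sugars through ChREBP, the transcription factor encoded by *Mlxipl* that is disrupted in KPF hepatocytes and that binds elements built of E-box motifs.

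The RefSeq promoter windows of 4 members are shown because the results below turn on these genes or because the window holds the E-box core. Each window covers 250 bases before and 50 bases after an annotated transcription start and is read 5′ to 3′ on the gene's strand. The coordinates of these windows are those of GRCm38.p6, whereas the expression table uses GRCm39. Capitals mark the E-box core CACGTG or the TATA box letters TATAAA, and a window without capitals holds neither.
*G6pc*, chr11:101367466-101367765, plus strand: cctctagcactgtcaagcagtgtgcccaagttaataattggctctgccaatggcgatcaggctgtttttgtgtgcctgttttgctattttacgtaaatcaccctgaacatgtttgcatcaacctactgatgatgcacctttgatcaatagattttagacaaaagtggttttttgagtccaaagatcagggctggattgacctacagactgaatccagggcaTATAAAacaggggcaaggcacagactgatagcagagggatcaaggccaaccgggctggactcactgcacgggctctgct
*G6pc3*, chr11:102189449-102189748, plus strand: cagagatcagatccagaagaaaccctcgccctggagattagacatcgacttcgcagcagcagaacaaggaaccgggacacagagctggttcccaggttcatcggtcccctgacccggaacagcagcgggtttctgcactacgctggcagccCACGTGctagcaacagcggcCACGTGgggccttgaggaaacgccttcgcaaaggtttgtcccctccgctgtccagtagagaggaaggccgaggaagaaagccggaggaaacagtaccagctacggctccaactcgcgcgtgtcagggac
*Pck1*, chr2:173152823-173153122, plus strand: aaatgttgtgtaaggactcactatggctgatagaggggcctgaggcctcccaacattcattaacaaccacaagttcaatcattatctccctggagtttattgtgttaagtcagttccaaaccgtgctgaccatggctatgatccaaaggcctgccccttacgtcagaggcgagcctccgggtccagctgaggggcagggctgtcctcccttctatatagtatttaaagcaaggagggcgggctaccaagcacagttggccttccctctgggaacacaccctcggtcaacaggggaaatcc
*Pcx*, chr19:4510222-4510521, plus strand: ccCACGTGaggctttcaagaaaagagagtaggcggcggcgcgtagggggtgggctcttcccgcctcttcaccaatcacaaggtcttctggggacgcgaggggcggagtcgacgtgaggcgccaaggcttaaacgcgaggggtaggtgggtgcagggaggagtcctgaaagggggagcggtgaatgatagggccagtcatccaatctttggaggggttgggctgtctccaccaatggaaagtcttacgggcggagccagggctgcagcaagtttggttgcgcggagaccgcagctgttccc
*Pcx*, chr19:4594069-4594368, plus strand: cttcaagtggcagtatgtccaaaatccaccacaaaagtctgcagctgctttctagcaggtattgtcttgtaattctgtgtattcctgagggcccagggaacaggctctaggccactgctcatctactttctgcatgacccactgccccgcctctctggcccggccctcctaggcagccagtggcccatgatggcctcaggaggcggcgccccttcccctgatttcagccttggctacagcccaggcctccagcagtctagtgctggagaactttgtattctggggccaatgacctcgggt
The 10 members had 13 such windows, and the letters were searched on both strands. The E-box core stood in the *G6pc3* window, where it occurred at bases -99 and -79 from the start, and in the upstream window of *Pcx* at base -248. It occurred in 7.15% of all 32851 RefSeq windows. TATAAA stood 29 bases before the start of *G6pc* and 32 bases before the start of the most downstream window of *Slc37a4*, and in 13.6% of all windows. The full cAMP response element TGACGTCA, present in 1.79% of all windows, and the FoxO core TGTTTAC, present in 3.65%, were in no window of a member. Only these exact letters were searched, so variant forms of the elements were not counted. The matches describe the letters in these windows only.

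The libraries held between 10694496 and 14496630 counted reads, the 3 smallest of them being the KPF libraries. Counts were scaled by edgeR's TMM method and are given as CPM, read counts scaled to a common library size, while levels of different genes are compared as FPKM, which also divides by exonic length. The targeted gene *Mlxipl* stood at 182, 709 and 860 CPM in KPF replicates 1, 2 and 3, against 974, 1277 and 891 CPM for WPF replicates 2, 3 and 4. Its groups did not overlap, but by the rule given below it was not called. The log2 fold change was -0.84 (unadjusted p = 0.152, adjusted p = 0.584 by edgeR's quasi-likelihood test). Reads of *Mlxipl* were counted over all exons together, so that a deleted exon cannot be seen in them. Values of other genes follow the same order of dams. Hepatocyte markers were abundant in every library, with a summed level of 80017 to 105898 CPM in KPF and 104115 to 173875 CPM in WPF, where the groups overlapped. Most of that sum was *Alb*. Of the 6 markers, 5 had a negative log2 fold change and 1 was called, *Cyp3a11*, which was lower in KPF without overlap (-2.38), and the median was -0.34. KPF replicate 2 stood apart by all 5 skeletal muscle markers, which summed to 3006 CPM there and to 4.63 to 10.6 CPM in the other libraries. WPF replicate 4 stood apart from WPF replicates 2 and 3 for several members. Members whose call changed when either library was left out are given with and without it. Fold changes of genes outside the members are given with all libraries only. In whole liver, fewer cells of a type and less RNA per cell cannot be told apart.

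KPF and WPF dams were compared to ask how the loss of hepatic ChREBP under HFrD left the glucose-producing genes. *Pcx* fell 1.88-fold in KPF, and it was the only member whose groups did not overlap. Of all tested genes, 15.7% had no overlap either way. *Pck1* was 3.60-fold higher in KPF by its mean and was called. That call was lost without KPF replicate 2, and also without WPF replicate 2 or WPF replicate 3. *G6pc* was 6.03-fold higher in WPF by its mean, was not called, and differed 72.7-fold between the lowest and the highest WPF dam. The other 7 members were not called. A gene was called where edgeR's quasi-likelihood test gave an unadjusted p under 0.05 and the change was at least 1.5-fold. By this rule 1 of 10 members was called higher and 1 lower, against 5.83% and 3.98% of the 10866 tested genes, so that 2 of 10 were called either way against 9.81%. The median log2 fold change of the members was -0.04 and that of all tested genes was 0.02. No gene of the table passed an adjusted p of 0.05 by edgeR, where 1176 genes had an unadjusted p under 0.05 and the smallest adjusted p was 0.397, while DESeq2 passed 156 genes. With 3 dams in each group, an exact two-sided permutation test cannot go below 0.1. For single genes that test compared mean log2 CPM, whereas edgeR's fold change compares mean levels.

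**Figure D1:**
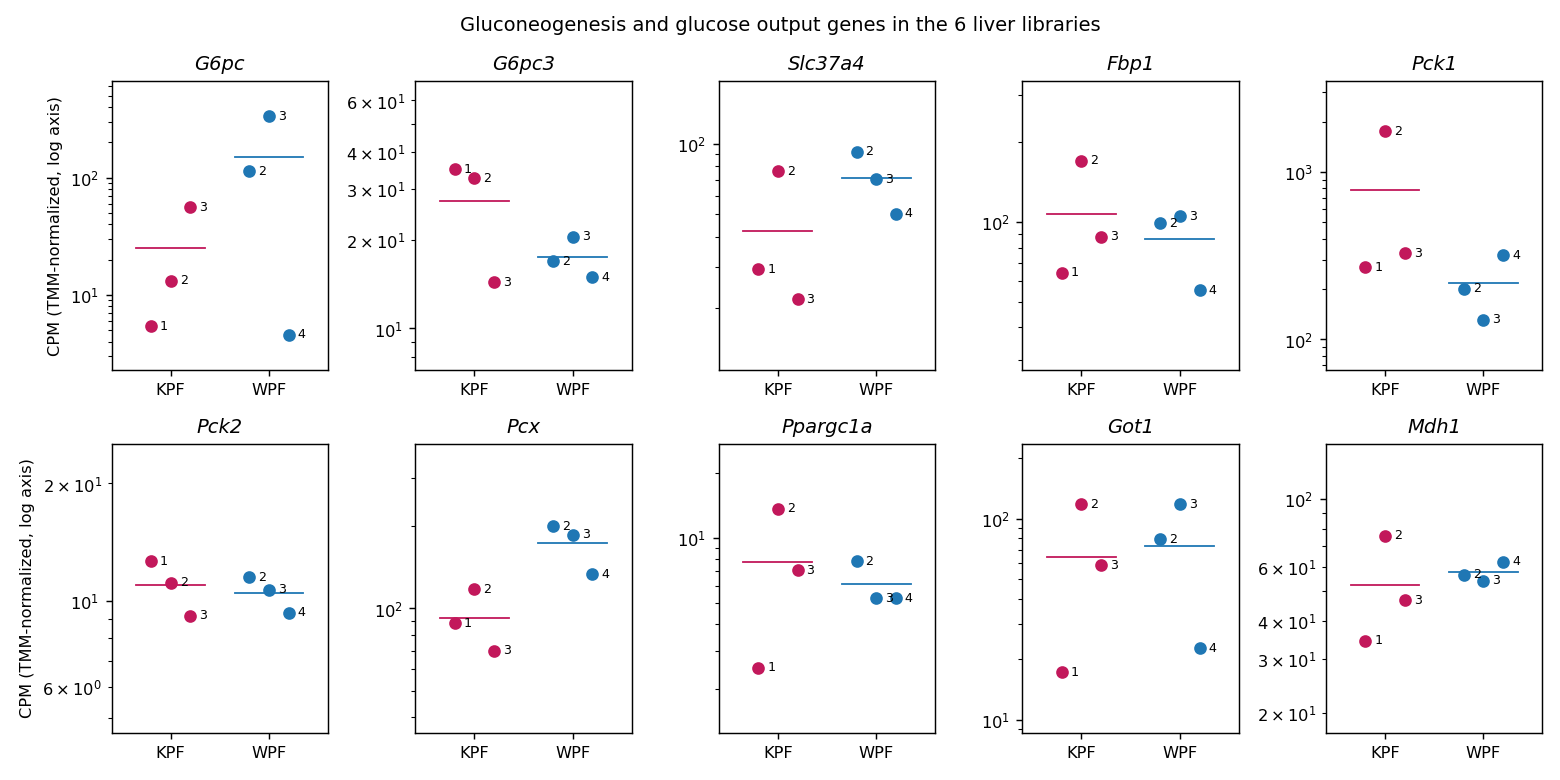
TMM-normalized CPM of the 10 members (log axis) in the 3 KPF and 3 WPF libraries, 1 panel per gene; each point is 1 dam with its replicate number, and the line is the group's mean. *Pcx* is the only panel in which no KPF point reaches a WPF point, *Pck1* has KPF replicate 2 far above the rest, and *G6pc* spans 4.57 to 332 CPM within WPF alone.

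*Pcx* (ENSMUSG00000024892, GRCm39 chr19:4560500-4671780, plus strand) encodes pyruvate carboxylase, which opens the pathway and also supplies oxaloacetate to the citric acid cycle. It stood at 88.3, 118 and 70.2 CPM in KPF replicates 1, 2 and 3, against 200, 186 and 134 CPM for WPF replicates 2, 3 and 4. No KPF dam reached the lowest WPF dam, the closest being KPF replicate 2 and WPF replicate 4. The means were 92.1 ± 24.1 CPM for KPF and 173 ± 34.9 CPM for WPF (SD, n = 3 each). The log2 fold change was -0.91 (standard error, SE, 0.29, unadjusted p = 0.0145, adjusted p = 0.430 by edgeR's quasi-likelihood test), and the exact two-sided permutation p was 0.1, the smallest possible. Among all tested genes, 8.15% had all KPF libraries below all WPF libraries, 7.55% had the opposite order, which no member had, and 15.7% had either. Leaving out any 1 library kept its log2 fold change between -1.13 and -0.75, and the call was lost only without WPF replicate 2 (-0.79). The call remained in the other 15 of 16 alternative analyses, with adjusted p over all 16 from 0.116 to 0.823. Beside it, stellate cell and fibroblast markers summed to 149 to 286 CPM in KPF and 85.3 to 113 CPM in WPF, with 3 of the 6 markers called higher. The hepatocyte markers had a median log2 fold change of -0.34, as given above. The part of either cell type in the result was not tested. *Lrfn4*, which overlaps *Pcx* on the opposite strand, had only 9 to 63 reads against 721 to 2610 for *Pcx*.

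Oxaloacetate leaves the mitochondrion as aspartate or malate, and *Got1* and *Mdh1*, the cytosolic aspartate aminotransferase and malate dehydrogenase, bring it back in the cytosol. *Got1* stood at 17.2, 118 and 58.6 CPM in KPF replicates 1, 2 and 3, against 79.1, 118 and 22.7 CPM for WPF replicates 2, 3 and 4. It differed 6.88-fold between the lowest and highest KPF dam and 5.19-fold within WPF, a spread far above its log2 fold change of -0.18 (SE 0.75, adjusted p = 0.941 by edgeR). *Mdh1* stood at 34.4, 75.8 and 46.6 CPM in KPF against 56.6, 54.0 and 62.4 CPM in WPF, with a log2 fold change of -0.14 (SE 0.30, adjusted p = 0.878 by edgeR). The WPF dams were close to each other for *Mdh1* and lay within the range of the KPF dams. Neither gene was called. KPF replicate 2 was the highest KPF dam for both and held the skeletal muscle markers, whose part in these levels was not tested. Without that library the log2 fold change was -0.96 for *Got1* and -0.52 for *Mdh1*. Without KPF replicate 1, the lowest KPF dam for both, these values were 0.27 and 0.086. *Got1* was called lower only when KPF replicate 2 and WPF replicate 4 were both left out (-1.39), a setting chosen after the values were seen.

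Phosphoenolpyruvate carboxykinase exists as a cytosolic enzyme, encoded by *Pck1*, and a mitochondrial one, encoded by *Pck2*. *Pck1* (ENSMUSG00000027513, GRCm39 chr2:172994841-173001066, plus strand) stood at 270, 1744 and 326 CPM in KPF replicates 1, 2 and 3, against 201, 131 and 318 CPM for WPF replicates 2, 3 and 4. KPF replicate 2 was 6.46-fold above KPF replicate 1, which itself was below WPF replicate 4, so the groups overlapped. The log2 fold change was 1.85 (SE 0.75, unadjusted p = 0.0409, adjusted p = 0.453 by edgeR's quasi-likelihood test), and the exact two-sided permutation p was 0.2. Without KPF replicate 2 the log2 fold change was 0.46 and *Pck1* was not called. Without KPF replicate 2 and WPF replicate 4 together it was 0.84 and called, and over all 16 alternatives it ran from 0.46 to 2.26 with 10 calls and adjusted p from 0.140 to 0.823.

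KPF replicate 2 held skeletal muscle markers, as given above. *Pck1* is also active in adipose tissue and kidney, and markers of these were read too. The adipocyte markers of KPF replicate 2 summed to 57.5 CPM, against 44.9 and 10.03 CPM in KPF replicates 1 and 3 and 6.53 to 12.7 CPM in WPF. Of these 6 markers, 2 were tested and both were called higher in KPF, while *Lep* had no read in any library and *Adipoq* reached at most 1.26 CPM. The 5 kidney markers summed to 0.628 CPM or less in every library, and 3 of them had no read at all. The same dam was also the highest of the 6 libraries for 5 of 6 genes of periportal hepatocytes, the zone where gluconeogenesis is most active. It was also the highest for 2 of 7 tested pericentral genes and for 19.3% of all tested genes. *Sds*, serine dehydratase, reached 211 CPM there, against 27.4 and 73.8 CPM in KPF replicates 1 and 3 and 46.7 to 80.0 CPM in WPF. *Cyp2f2*, a cytochrome P450 of the same zone, was at 125 CPM there and at 34.9 to 76.9 CPM elsewhere. The part of these tissues and of zonation in the *Pck1* level was not tested.

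*Pck2* differed least between dams among the members. It stood at 12.6, 11.1 and 9.15 CPM in KPF against 11.5, 10.7 and 9.32 CPM in WPF, a log2 fold change of 0.07 (SE 0.23, adjusted p = 0.929 by edgeR) whose sign turned under library totals (-0.05) and 7 other alternatives. By FPKM *Pck2* was far below *Pck1*, at 1.34 ± 0.27 against 220 ± 242 in KPF and 1.38 ± 0.09 against 66.7 ± 36.0 in WPF (SD, n = 3 each). The exonic length behind the FPKM of *Pck2* was 7806 bases, the longest of the members.

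*Fbp1*, the liver form of fructose-1,6-bisphosphatase, undoes the committed step of glycolysis. It stood at 64.2, 170 and 87.8 CPM in KPF replicates 1, 2 and 3, against 98.6, 105 and 55.1 CPM for WPF replicates 2, 3 and 4. The KPF dams spanned the whole range of the WPF dams apart from WPF replicate 4. The log2 fold change was 0.32 (SE 0.42, adjusted p = 0.800 by edgeR; exact permutation p = 0.7) and became -0.19 without KPF replicate 2. *Fbp2*, the muscle form, was below the filter and reached 4.48 CPM in KPF replicate 2 and at most 1.16 CPM in the other libraries.

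*G6pc* (ENSMUSG00000078650, GRCm39 chr11:101258387-101268729, plus strand) encodes the catalytic subunit of glucose-6-phosphatase of liver and kidney, the last step before glucose leaves the hepatocyte. It stood at 5.41, 13.3 and 56.0 CPM in KPF replicates 1, 2 and 3, against 113, 332 and 4.57 CPM for WPF replicates 2, 3 and 4. WPF replicates 2 and 3 were above every KPF dam, and WPF replicate 4 was below every KPF dam. The highest dam was 10.4-fold above the lowest within KPF and 72.7-fold within WPF, and only 0.957% of tested genes had a larger within-group SD. The read counts behind these values ran from 56 to 4664. The log2 fold change was -2.59 (SE 1.34, unadjusted p = 0.0906, adjusted p = 0.515 by edgeR's quasi-likelihood test). For the difference in mean log2 CPM, the exact two-sided permutation p was 0.5. *G6pc* was called lower without WPF replicate 4 (-3.18) and without KPF replicate 3 (-4.00), and with any other library left out it was not called, with values as small as -1.24.

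Several genes of the circadian clock, from a list of 10 added after the values were seen, separated the same dams as *G6pc*. *Arntl*, the activating clock factor BMAL1, was at 26.6 CPM in KPF replicate 3, with WPF replicates 2 and 3 at 21.2 and 31.3 CPM. In KPF replicates 1 and 2 and WPF replicate 4 it was only at 2.41, 1.08 and 1.48 CPM. The 3 dams with high *Arntl* were the 3 with high *G6pc*. *Npas2*, a partner of BMAL1, was at 8.96, 10.6 and 23.0 CPM in the same dams and at 0.0896 to 0.869 CPM in the others. *Dbp*, a clock output gene that peaks when *Arntl* is low, was at 1.57 to 5.94 CPM in those 3 dams and at 38.8 to 288 CPM in the others. None of the 10 clock genes was called between KPF and WPF, and the part of the hour of collection in the *G6pc* result was not tested. By the root-mean-square distance of centred log2 CPM over the 6 libraries, the tested genes nearest to *G6pc* were *Gm2061* (0.770), *Slc30a10* (0.890), *Gm48878* (0.929), *Arntl* (1.01) and *Fam198a* (1.03). The same measure put *Sult5a1* (0.221), *Cyp2b13* (0.295), *Ces3b* (0.303), *Gyg* (0.309) and *Nrep* (0.316) nearest to *Pck1*, each of them highest in KPF replicate 2.

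**Figure D2:**
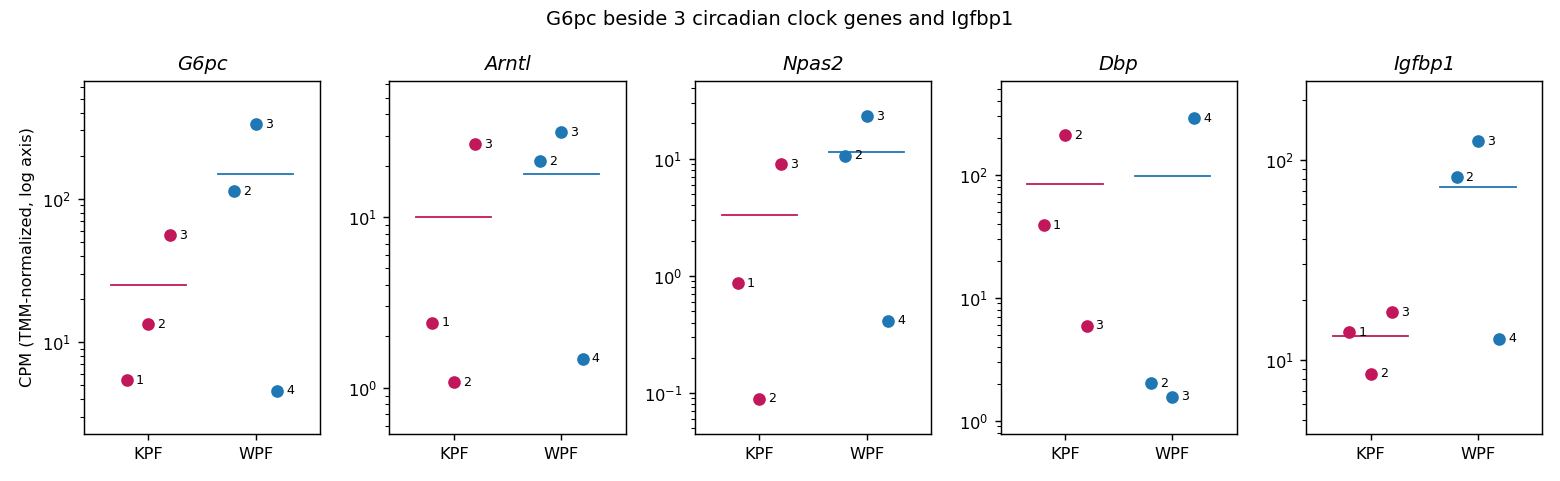
TMM-normalized CPM (log axis) of *G6pc*, the clock genes *Arntl*, *Npas2* and *Dbp*, and *Igfbp1* in the 6 libraries; each point is 1 dam with its replicate number and the line is the group's mean. KPF replicate 3 and WPF replicates 2 and 3 are the 3 highest dams for *G6pc*, *Arntl* and *Npas2* and the 3 lowest for *Dbp*.

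*G6pc3*, the ubiquitous glucose-6-phosphatase subunit, stood at 34.9, 32.5 and 14.4 CPM in KPF replicates 1, 2 and 3, against 17.0, 20.6 and 15.0 CPM for WPF replicates 2, 3 and 4. KPF replicates 1 and 2 were above all WPF dams and KPF replicate 3 was below them, so the groups overlapped. The log2 fold change was 0.64 (SE 0.34, unadjusted p = 0.0980, adjusted p = 0.525 by edgeR), and *G6pc3* was called higher only without KPF replicate 3 (0.95). *Slc37a4*, the transporter that carries glucose-6-phosphate into the endoplasmic reticulum to the phosphatase, stood at 29.2, 76.6 and 21.7 CPM in KPF against 92.4, 70.6 and 50.4 CPM in WPF. KPF replicates 1 and 3 were below every WPF dam, and KPF replicate 2 lay among them. The log2 fold change of *Slc37a4* was -0.74 (SE 0.48, unadjusted p = 0.165, adjusted p = 0.598 by edgeR; exact permutation p = 0.3). It was called lower without KPF replicate 2 (-1.49), and also without that library and WPF replicate 4 together (-1.69).

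*Ppargc1a* encodes PGC-1α, a coactivator of FOXO1, HNF4A and the glucocorticoid receptor at gluconeogenic promoters. It was just above the filter, with a mean of 1.03 FPKM and 26 to 152 reads per library. The levels were 2.51, 13.6 and 7.11 CPM in KPF against 7.79, 5.27 and 5.28 CPM in WPF. The KPF dams lay on both sides of the WPF dams, and the log2 fold change of 0.35 (SE 0.55, adjusted p = 0.828 by edgeR) became -0.35 without KPF replicate 2.

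**Figure D3:**
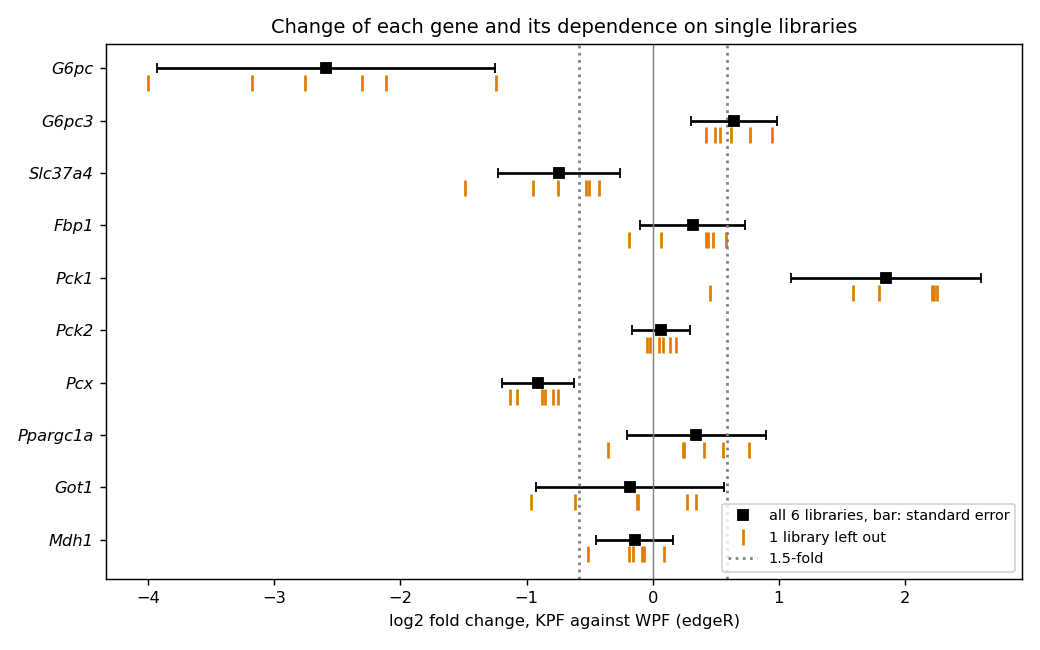
Log2 fold change of each member, KPF against WPF, by edgeR; the square is the value with all 6 libraries, the bar its standard error, the orange ticks the values with 1 library left out, and dotted lines mark 1.5-fold. *Pcx* keeps all its ticks between -1.13 and -0.75, *Pck1* has a tick at 0.46, and the ticks of *G6pc* run from -4.00 to -1.24.

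Across the members, the spread between dams was set beside the difference between groups. The within-group SD of log2 CPM exceeded the size of edgeR's log2 fold change for 5 members (*Fbp1*, *Pck2*, *Ppargc1a*, *Got1* and *Mdh1*). The same count was not made over all tested genes. That fold change compares mean levels rather than mean log2 levels, so the count depends on this choice. For *G6pc* the SD of 2.57 was just below the size of edgeR's value (-2.59). By limma on log2(FPKM + 1), which compares mean log2 levels, the change of *G6pc* was -1.84. *G6pc*, *Pck1*, *Ppargc1a* and *Got1* were among the 10% of tested genes with the largest within-group SD. KPF replicate 2 was the highest KPF library for 7 members and KPF replicate 1 the lowest for 6. WPF replicate 4 was the lowest WPF library for 7 members and the highest for *Pck1* and *Mdh1*. These counts of libraries were not set against all tested genes either. In the order of mean FPKM, *Pck1* led both groups. In KPF it was followed by *Fbp1* (60.1), *Got1* (24.2), *Mdh1* (18.7), *Pcx* (18.5), *Slc37a4* (14.3), *G6pc3* (11.8), *G6pc* (9.38), *Pck2* (1.34) and *Ppargc1a* (1.12), and among neighbours in that order only *G6pc* and *Pck2* did not overlap. In WPF the order after *Pck1* was *G6pc* (63.6), *Fbp1* (51.5), *Pcx* (37.2), *Got1* (29.2), *Slc37a4* (25.1), *Mdh1* (22.5), *G6pc3* (8.14), *Pck2* (1.38) and *Ppargc1a* (0.943), and neighbours overlapped down to *Mdh1* and were apart from there on.

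Ratios of 2 genes within a library do not depend on the scaling between libraries, and 4 ratios of transcripts were compared, 2 between opposing steps of glycolysis and gluconeogenesis and 2 between forms of the same enzyme. *Pck1* over *Pklr*, the liver pyruvate kinase that runs the opposite way and is a known ChREBP target, was 22.6, 88.7 and 25.5 in KPF replicates 1, 2 and 3 and 1.26, 0.891 and 12.1 in WPF replicates 2, 3 and 4. It was the only ratio without overlap of the groups, with a mean log2 difference of 3.96 (exact two-sided permutation p = 0.1, adjusted p over the 4 ratios = 0.4). It stayed between 3.25 and 5.13 in 8 alternatives. Of its 2 genes, only *Pklr* had groups without overlap by itself (log2 fold change -2.91 by edgeR), while those of *Pck1* overlapped (1.85). The log2 difference was 1.34 for *Pck1* over *Pck2* (exact permutation p = 0.2), -2.36 for *G6pc* over *G6pc3* (exact permutation p = 0.3) and 0.55 for *Fbp1* over *Pfkl*, the liver phosphofructokinase of the opposite step (exact permutation p = 0.4). None of the 4 could pass a threshold of 0.05 in this design.

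**Figure D4:**
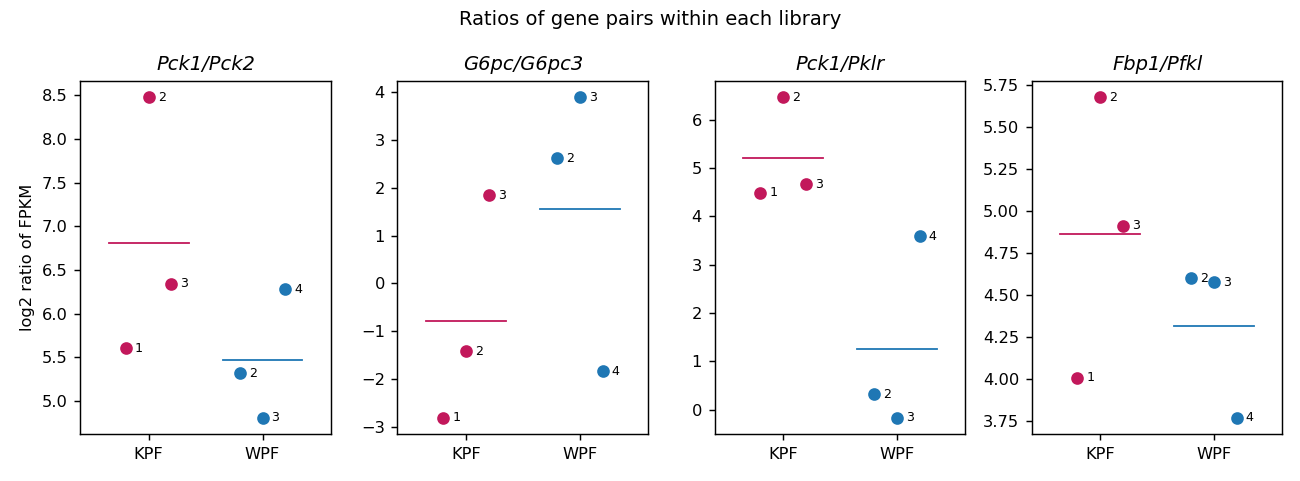
Log2 ratio of FPKM of 2 genes within each library, 1 panel per pair; each point is 1 dam with its replicate number and the line is the group's mean. Only *Pck1* over *Pklr* has all 3 KPF dams above all 3 WPF dams, with WPF replicate 4 nearest to KPF.

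The genes around the members were read from lists written by hand, whose counts stand beside the 5.83% of all tested genes called higher and the 3.98% called lower. *Slc2a2*, the glucose transporter GLUT2 through which glucose enters and leaves hepatocytes, fell in KPF. It stood at 22.9, 59.7 and 25.8 CPM in KPF against 120, 128 and 82.7 CPM in WPF, with no overlap and a log2 fold change of -1.61 (SE 0.41, unadjusted p = 0.00487, adjusted p = 0.430 by edgeR). *Slc2a2* and *Slc37a4*, the transporters on either side of glucose-6-phosphatase, were both lowest in KPF replicates 1 and 3. *G6pc2*, the islet form of the phosphatase, had at most 0.263 CPM and was not tested.

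Of 6 enzymes of the reversible steps shared with glycolysis, none was called higher and 2 were called lower. *Eno1*, an enolase, stood at 35.4, 30.7 and 22.7 CPM in KPF against 60.3, 67.8 and 43.1 CPM in WPF without overlap (log2 fold change -0.95). *Gpi1*, glucose-6-phosphate isomerase, stood at 173, 198 and 104 CPM in KPF against 789, 539 and 119 CPM in WPF (log2 fold change -1.61), and WPF replicate 4 lay among the KPF dams. *Tpi1*, triosephosphate isomerase, came next by p (log2 fold change -0.25) and was not called. The median log2 fold change of the list was -0.14. Of 4 enzymes and regulators of the opposite direction, none was called higher and 2 were called lower, with a list median of -0.58. *Pklr* stood at 11.3, 18.6 and 12.1 CPM in KPF against 151, 139 and 24.9 CPM in WPF (log2 fold change -2.91), and *Gckr* was at 341, 317 and 453 CPM and at 766, 794 and 470 CPM (-0.87), both without overlap. *Pfkl* also had no overlap, at a log2 fold change of -0.29 (adjusted p = 0.622 by edgeR), and was not called.

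Precursors enter gluconeogenesis through transporters, dehydrogenases and aminotransferases. Of 11 such genes, none was called higher and 2 were called lower, with a list median of 0.22. *Slc16a1*, a lactate and pyruvate transporter, stood at 16.7, 15.7 and 23.9 CPM in KPF against 35.1, 38.7 and 19.9 CPM in WPF, which overlapped (-0.74). *Slc38a2*, an amino acid transporter, stood at 62.7, 102 and 82.7 CPM in KPF against 124, 142 and 113 CPM in WPF, which did not (-0.61). *Gk*, glycerol kinase, was not called (0.39). None of the 9 mitochondrial partners of the carbon shuttle was called, and their median was 0.09. Among them the citrate carrier *Slc25a1* (-0.50), the pyruvate carrier subunit *Mpc2* (-0.45) and the oxoglutarate carrier *Slc25a11* (0.32) had the smallest p.

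Of 23 hormone receptors, transcription factors and coactivators of the pathway, 19 were tested, none was called higher and 1 was called lower, with a median of 0.03. This was *Sirt1*, a deacetylase that acts on PGC-1α and FOXO1, at 5.99, 9.14 and 9.83 CPM in KPF against 10.9, 14.4 and 15.5 CPM in WPF without overlap (log2 fold change -0.71, adjusted p = 0.438 by edgeR). *Creb3l3* (0.74) and *Foxa2* (-0.51), transcription factors of fasting liver, came next by p and were not called. The glucagon receptor *Gcgr* (-0.05) and *Foxo1* (-0.02), named here after their values were seen, were not called either. Of 8 other genes that FoxO1, glucocorticoids or cAMP induce, 1 was called, lower. It was *Igfbp1*, an insulin-suppressed binding protein of IGF-1, at 13.7, 8.52 and 17.3 CPM in KPF against 81.8, 124 and 12.8 CPM in WPF (log2 fold change -2.46). WPF replicate 4 was as low as KPF for *Igfbp1*, as it was for *G6pc*. *Fgf21*, a fasting and sugar responsive hepatokine, stood at 6.66, 0 and 0.487 CPM in KPF against 19.8, 13.5 and 1.31 CPM in WPF, and *Tsc22d3*, a glucocorticoid target, had a log2 fold change of 0.47, neither of them called.

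The zones of the liver lobule were checked with markers of each. None of the 6 periportal genes was called, with *Ass1* (-0.57), *Sds* (0.83) and *Cyp2f2* (0.52) having the smallest p and a list median of 0.03. *Sds* is also in the list of precursor entry. Of 8 pericentral genes, 7 were tested and 1 was called, *Axin2*, a Wnt target, at 3.86, 7.35 and 5.55 CPM in KPF against 10.1, 18.7 and 11.8 CPM in WPF without overlap (-1.27), and the list median was 0.03. *Oat* (0.79) and *Glul* (-0.17), enzymes of the same zone, were not called. Of the 70 tested genes in all these lists outside the members, 10 were called lower in KPF (14.3%, against 3.98% of all tested genes) and 0 higher (against 5.83%), and over the alternatives 5 to 20 were called in either direction. The lists were chosen with results of these libraries known and their counts are a description.

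**Figure D5:**
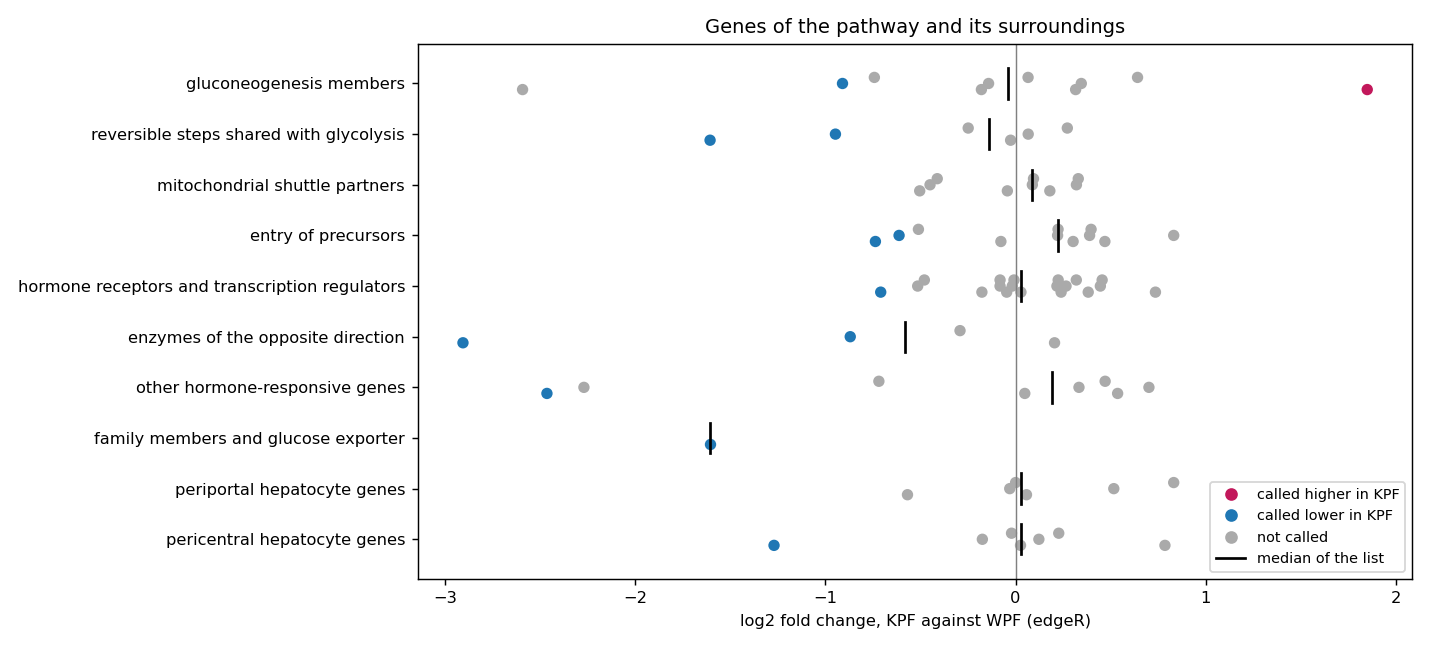
Log2 fold change (KPF against WPF, edgeR) of the tested genes of each list; red points were called higher in KPF, blue points lower, gray points were not called, and the black mark is the list's median. *Pck1* is the only red point, the called genes of all other lists are lower in KPF, and 4 of them (*Pklr*, *Igfbp1*, *Gpi1* and *Slc2a2*) lie below -1.5.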

How the data were processed

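Poly(A) RNA-seq of liver was analysed for 3 KPF and 3 WPF dams. The authors deposited raw read counts per Ensembl gene for each library, and FPKM values that equal the deposited count divided by the exonic length and the library total (100% of values within 0.006). The submitters' processing notes name cutadapt 1.9.1, HISAT2 2.2.1, HTSeq 0.6.1, DESeq2 and GRCm39, and whether counting used strand is not given in the sources used here. Every per-library column belonged to a labelled sample. Symbols came from GENCODE M21 (52073 of 56691 identifiers matched), and promoters from RefSeq.

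Counts were tested with edgeR 4.0.16 (R 4.3.3, quasi-likelihood, TMM, group as the only term) on the 10866 genes whose FPKM averaged 1 or more, with Benjamini-Hochberg adjustment over all of them, and single values by exact two-sided permutation over the 6 libraries. The test was checked on simulated data. Alternatives used DESeq2 1.42.0 or its size factors, library totals, no filter, a mean FPKM of at least 5, filterByExpr, limma 3.58.1 on log2(FPKM + 1) or log2(FPKM + 0.1), each library left out, and a replicate block; leaving out KPF replicate 2 and WPF replicate 4 together and the clock genes were added after the data were seen. The members and lists were chosen with earlier results of these data known. Named genes were all members, in each list the called genes plus up to 3 with the smallest p, and the 5 genes nearest to *G6pc* and to *Pck1*. With 10694496 to 14496630 reads per library, members had 26 to 19458 reads. The p values of edgeR set a group difference against the spread between the sampled dams. Protein sequences were not used here, and some planned genes of the lists and a planned ratio are not reported here.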

Additional observations from a re-analysis of the deposited data

How the results depend on the processing

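*Pcx* and *Pck1* kept their direction in all 16 alternatives, as did *G6pc*, *G6pc3* and *Slc37a4*, while the signs of *Fbp1*, *Pck2*, *Ppargc1a*, *Got1* and *Mdh1* were not stable. Where a call or sign changed, the cause was not tested. With 3 dams a group, differences smaller than the spread between dams were not detectable.

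Leaving out 1 library at a time, log2 fold changes ran from -4.00 to -1.24 for *G6pc*, 0.42 to 0.95 for *G6pc3*, -1.49 to -0.43 for *Slc37a4*, -0.19 to 0.58 for *Fbp1*, 0.46 to 2.26 for *Pck1*, -0.048 to 0.18 for *Pck2*, -1.13 to -0.75 for *Pcx*, -0.35 to 0.76 for *Ppargc1a*, -0.96 to 0.35 for *Got1* and -0.52 to 0.086 for *Mdh1*. *Pck1* was not called without KPF replicate 2 (0.46), WPF replicate 2 (1.80) or WPF replicate 3 (1.59), and *Pcx* not without WPF replicate 2 (-0.79). Members called higher ran from 0 to 2 and lower from 0 to 2, genes called in the other lists from 5 to 13, all genes called higher from 324 to 910 and lower from 246 to 709, and genes past an adjusted p of 0.05 by edgeR from 0 to 5, the 5 arising without WPF replicate 4.

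Without KPF replicate 2 and WPF replicate 4 together, 4 members were called lower: *G6pc* (-2.88), *Slc37a4* (-1.69), *Pcx* (-1.29) and *Got1* (-1.39). The signs of *Fbp1* (-0.43), *Pck2* (-0.032) and *Ppargc1a* (-0.45) turned, *G6pc3* was at 0.38 and not called, 15 genes of the other lists were called in either direction and 657 genes in all were called lower, and 44 genes passed the adjustment by edgeR.

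With library totals in place of TMM, *Pck1* (1.72) was not called, so that 0 members were called higher, *Pck2* turned to -0.047, and 371 genes were called higher and 716 lower. The median of all genes moved from 0.02 to -0.12 and the share of higher calls from 59.5% to 34.1%. With limma on log2(FPKM + 1) that share was 30.1% with a median of -0.09, 238 genes were called higher, *Pck1* (1.26) was not called, leaving 0 members higher, and *Pck2* was -0.033. With limma on log2(FPKM + 0.1) the share was 27.4% with a median of -0.12, 257 genes were called higher and 681 lower, 1 gene passed the adjustment, *Pck1* (1.27) was not called, leaving 0 members higher, and *Pck2* (-0.059) and *Ppargc1a* (-0.029) turned. DESeq2 passed 156 genes at an adjusted p of 0.05.

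Without a filter, 1576 genes were called higher and 910 lower, 286 passed the adjustment by edgeR, 3 members were called lower by the addition of *G6pc* (-2.65) and *Slc37a4* (-0.81), and *Pck2* was -0.0012. With a mean FPKM of at least 5, 255 genes were called higher and 205 lower, and 6 genes of the other lists were called.

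Replicate numbers 2 and 3 occur in both groups but name different dams, and the sources used here state no pairing. Deviations from the group means correlated at 0.087 and -0.052 for these numbers. So few values cannot decide whether same-numbered dams shared a batch. Under the replicate block, which uses the numbers 2 and 3 as pairs, 2 members were called lower, *G6pc* (-2.83) and *Pcx*, the signs of *Pck2* (-0.13) and *Mdh1* (0.11) turned, and 20 genes of the other lists were called.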
